A study of Drosophila melanogaster with 6 samples.

Results

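The pericentric under-replicated windows of chromosome 3L are the 379 windows of 10 kb that the deposited list of pericentric under-replicated windows places on 3L, each counted once, of 2189 different windows listed for the whole genome. They lie between 23.35 and 28.11 Mb of the dm6 assembly, on the side of the arm next to the centromere, and cover 3790 kb of that span of 4760 kb. A read fell in 371 of them. The other 8 are assembly gaps made only of N and have no value in any genotype. Copy number was measured by sequencing genomic DNA from salivary glands of female wandering larvae of the third instar, in 3 genotypes with 2 biological replicates each, every replicate made from 25 glands and every library from 20 ng of DNA. All larvae, controls included, were homozygous for a deletion of the endogenous replication-dependent histone genes (ΔHisC, twi-GAL4 over ΔHisC, UAS-2xEYFP), were picked as GFP positive, and lived on a transgenic histone gene array inherited from homozygous fathers. The array encoded wild type histones in HWT, H3 with arginine at lysine 9 in H3K9R and H4 with arginine at lysine 16 in H4K16R. The replication-independent histone genes were not mutated, so unmutated H3 and H4 from those genes could still be made in both mutants.

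Salivary gland cells grow by endoreplication, in which rounds of DNA synthesis follow each other without division and give polytene chromosomes. Pericentric heterochromatin, packed on nucleosomes methylated at H3 lysine 9 and bound by HP1a, replicates last and is often not finished before the next round, so its copies fall behind those of the arms. This is called under-replication. Acetylation of H4 lysine 16 is by contrast a mark of open euchromatin.

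Copy number was given as RPM, the reads of a window per 1000000 reads of the library, averaged by the authors over both replicates of a genotype. Reads spread evenly over the 6 chromosome arm sequences would give 74.7 RPM in each window. The deposited averages could be split exactly into the whole reads of 2 libraries per genotype, called here the deeper and the shallower one because the averages do not carry replicate numbers. The libraries held between 18681787 and 26685461 reads, and a 3L window held a median of 483 to 1378 reads, so counting error was small except in the poorest windows. Across the 379 windows the libraries of a genotype correlated at r = 0.99 in all 3 genotypes, as a description of windows that share their libraries. The domains behind the list were called by the authors in HWT, from these same HWT libraries, so low HWT values were what put a window on the list. The comparison of H3K9R with H4K16R does not use HWT.

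Sequences of 3 kinds within these windows carry the results that follow and are shown here as the plus strand of dm6 unless stated. The first, 240 bases from 3L:25514881-25515120, is the centre of the window with the highest H3K9R/HWT ratio and lies in an intron of lovit. The next pair are parts of repeat units taken from 2 tandem arrays in which H3K9R lay below H4K16R, at 3L:24643040-24643189 and, on the minus strand, at 3L:26948986-26949137. The last is 150 bases of a coding exon of eIF4B at 3L:27856779-27856928, whose windows had nearly equal RPM in HWT and H3K9R. In the lovit and eIF4B sequences capitals mark bases in no 100-base sequence that occurs once in the assembly. In the array sequences capitals mark the bases that are identical when both are aligned.
lovit intron: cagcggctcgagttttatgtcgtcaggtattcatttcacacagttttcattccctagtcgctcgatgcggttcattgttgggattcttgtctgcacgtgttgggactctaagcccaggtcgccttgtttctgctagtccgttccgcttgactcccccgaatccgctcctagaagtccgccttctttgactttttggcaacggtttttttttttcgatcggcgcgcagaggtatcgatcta
tandem array at the first site: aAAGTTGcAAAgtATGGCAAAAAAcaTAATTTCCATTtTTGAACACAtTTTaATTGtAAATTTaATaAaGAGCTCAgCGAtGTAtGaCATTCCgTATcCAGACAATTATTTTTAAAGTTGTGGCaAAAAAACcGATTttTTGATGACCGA
tandem array at the second site, minus strand: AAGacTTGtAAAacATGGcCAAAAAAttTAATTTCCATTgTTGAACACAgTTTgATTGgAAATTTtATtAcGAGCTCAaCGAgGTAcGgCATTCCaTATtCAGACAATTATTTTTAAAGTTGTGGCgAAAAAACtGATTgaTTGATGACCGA
eIF4B coding exon: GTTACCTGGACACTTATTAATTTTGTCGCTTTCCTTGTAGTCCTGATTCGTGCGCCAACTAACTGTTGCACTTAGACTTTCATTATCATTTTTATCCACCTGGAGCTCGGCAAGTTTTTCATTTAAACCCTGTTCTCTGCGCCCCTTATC
All bases of the lovit sequence could be placed by a 100-base read, and none of the eIF4B exon could, because an identical copy of it lies at 3L:27547690-27547839. In the arrays, the first sequence is repeated without a change 348 bases further on. The sequences from the 2 sites shared 127 of 149 aligned bases (85.2%).

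In H3K9R the 3L windows were higher than in HWT almost throughout. The median RPM over the 371 windows was 23.7 in both HWT libraries, 22.6 and 22.0 in the H4K16R libraries, and 61.9 and 61.0 in the H3K9R libraries. The H3K9R libraries were thus the 2 highest and did not overlap the other 4. The windows took 0.995% and 0.985% of all reads in HWT, 0.961% and 0.959% in H4K16R, and 2.10% and 2.07% in H3K9R. The median log2 ratio of H3K9R to HWT over windows was 1.12, a 2.17-fold higher copy number, with quartiles of 0.61 and 1.81. It lay between 1.08 and 1.15 in the 4 pairings of single libraries. The difference between library medians was 1.38 on the log2 scale, with an exact two-sided permutation p of 0.33, the smallest that 2 against 2 libraries can give. The ratio was above 1 in 366 of 371 windows. It was at least 2 in 200 windows (53.9%), against 37.6% of all listed windows with a ratio.

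Each window was also tested with limma on log2(RPM + 1) of the 6 libraries, fitted over all 2177 listed windows with a read, at the study's cutoff of 0.001 on Benjamini-Hochberg adjusted p. By this test 311 of the 371 windows were higher in H3K9R than in HWT (83.8%), where 50.8% of all listed windows were. None of the 371 was lower, against 7.17% of all listed windows, and at an unadjusted p under 0.05 the counts on 3L were 348 higher and 1 lower, against 58.7% and 22.1% of all listed windows. Both H3K9R libraries exceeded both HWT libraries in 358 windows and lay below both in 2, where the shares over all listed windows were 61.5% and 28.1%. The high share is common to pericentric windows, since 773 of 998 on the other chromosomes were called higher (77.5%). Counts called higher in parts of 3L below are to be read beside these shares of 50.8% and 77.5%.

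**Figure D1:**
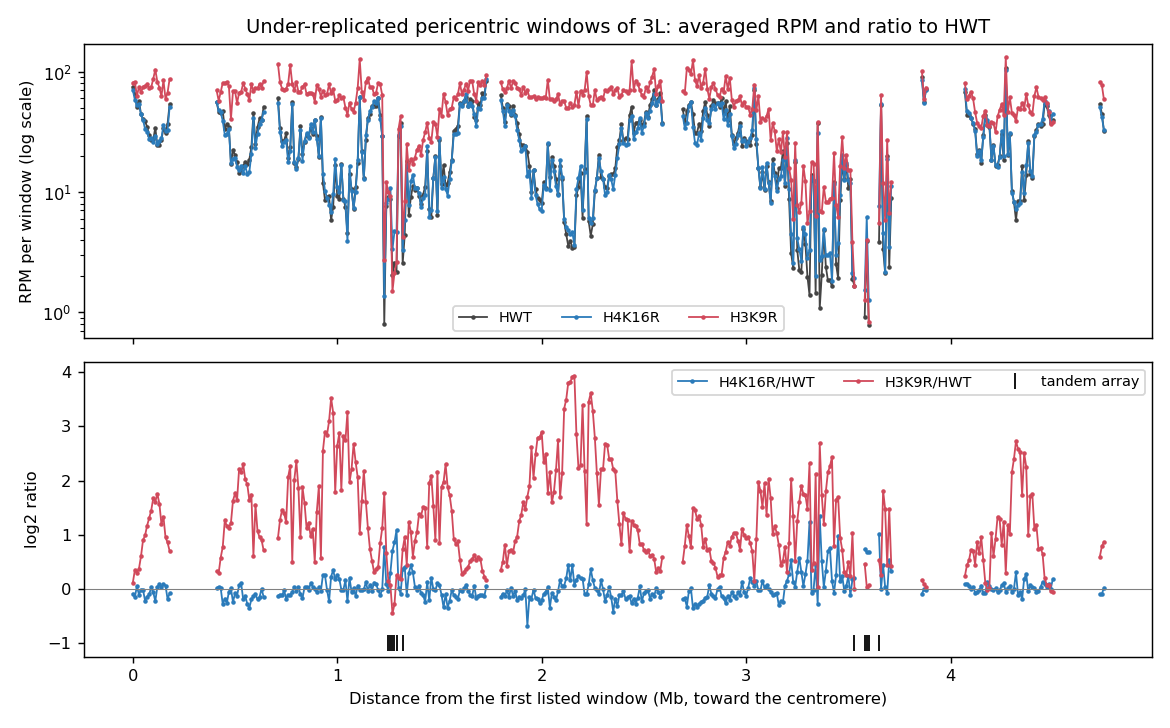
Averaged RPM of each genotype (upper panel, log scale) and log2 ratio to HWT (lower panel) of the 3L windows, by distance in Mb from the first listed window toward the centromere; points are windows, lines join adjoining windows and black ticks mark tandem arrays. HWT and H4K16R drop together toward the interior when stretches are pooled, though not in every stretch. H3K9R has a median of 61.3 RPM over the 371 windows with a read. In the stretch that starts 2.69 Mb from the first window its median is lower, 27.0 RPM with assembly gaps counted as 0 RPM. Gap windows are not drawn.

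H4K16R showed no such rise. The median log2 ratio of H4K16R to HWT was -0.02, with quartiles of -0.12 and 0.07, and the pairings of single libraries gave -0.04 to -0.01. The library medians differed by -0.09 (exact two-sided permutation p = 0.33). Both H4K16R libraries lay above both HWT libraries in 83 windows and below both in 118, against 37.0% and 19.8% of all listed windows. Limma called 3 windows higher and 0 lower on 3L, against 1.29% and 0.138% of all listed windows, and at an unadjusted p under 0.05 it gave 45 higher and 47 lower, against 21.9% and 6.84% of all listed windows. The 3 windows, described further on, all lie in tandem arrays, and none was called when any 1 library of HWT or H4K16R was left out. The ratio was at least 2 in 4 windows, against 1.33% of all listed windows.

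The direct comparison with H4K16R gave values close to those with HWT. The median log2 ratio of H3K9R to H4K16R was 1.10, or 2.14-fold, and the library medians differed by 1.46 (exact two-sided permutation p = 0.33). Limma called 313 of the 371 windows higher in H3K9R, against 48.2% of all listed windows, and 4 lower, against 7.58%. The 4 became 2 with a pseudocount of 0.1 RPM, with all listed windows, with the libraries of the 2 genotypes alone or after scaling to arm windows, and 1 to 3 with 1 library left out. The ratio was at least 2 in 208 windows, against 34.6% of all listed windows. The comparisons share their H3K9R libraries.

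**Figure D2:**
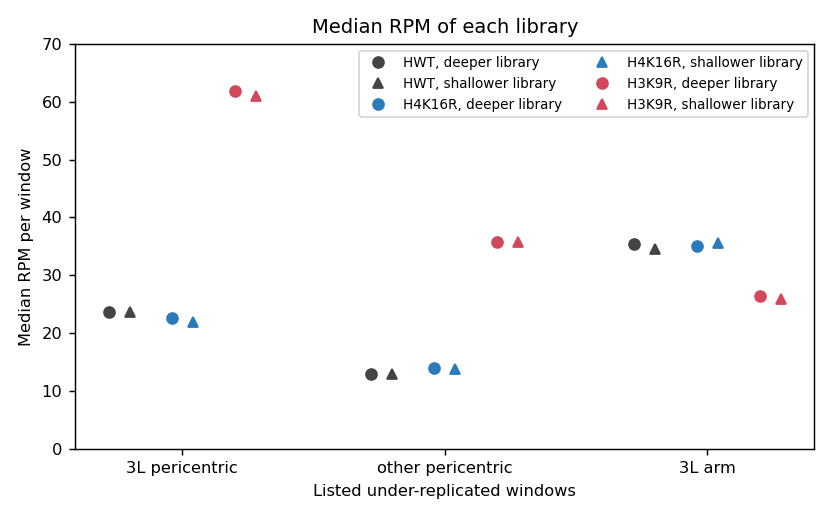
Median RPM per window of each of the 6 libraries over the 3L pericentric windows, the pericentric windows of other chromosomes and the arm windows of 3L; circles are deeper and triangles shallower libraries. The H3K9R libraries are highest in both pericentric sets (61.9 and 61.0 RPM on 3L) and lowest in the arm set (26.5 and 26.0 RPM).

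The pericentric windows of 3L stood at a higher level than those of the other chromosomes pooled, though below those of 2L, in all 3 genotypes. In every library the 3L median RPM was above that of the 1002 listed pericentric windows of other chromosomes. Their median was 12.9 in both HWT libraries, 13.9 and 13.7 in H4K16R and 35.8 in both H3K9R libraries. These medians include windows without a read, which the 3L medians leave out. Over the 998 with a read, the median log2 H3K9R/HWT ratio was 1.26 and the H4K16R/HWT ratio 0.10, each above that of 3L. Chromosome by chromosome the H3K9R/HWT medians ran from 0.67 on 4 and 0.72 on 2L, both below 3L, to 1.45 on X, and the H4K16R/HWT medians from -0.02 on 2L to 0.22 on 3R. In library medians, the log2 excess of 3L over the 1002 windows was 0.88 in both HWT libraries, 0.70 and 0.68 in H4K16R, and 0.79 and 0.77 in H3K9R. The excess in H3K9R was 0.10 smaller than in HWT (exact two-sided permutation p = 0.33). In the 132 under-replicated windows along the arm of 3L, RPM was lower in H3K9R. The library medians were 35.4 and 34.6 RPM in HWT and 26.5 and 26.0 RPM in H3K9R. The median log2 ratio over windows was -0.34. RPM are shares of all reads, so more reads at pericentric windows lower the RPM of other regions. Among the 808 listed under-replicated arm windows of all chromosomes, the 81 with the highest HWT RPM had a median H3K9R/HWT ratio of 0.908. They were picked by HWT, the denominator of that ratio, and fully replicated arm sequence is not among them. The paper gives this effect of read shares as a possible source of the arm decrease, beside newly called domains. Neither was tested here. The change in H3K9R at the pericentric windows exceeded that at the arm windows by 1.79 on the log2 scale in library medians, again with the smallest possible exact p of 0.33.

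The response was built up within stretches of adjoining windows, of which 3L had 8. Of these, 6 were at least 50 kb long. The counts called higher stand beside 50.8% of all listed windows and 77.5% of the other pericentric ones. The stretch nearest the arm, 3L:23350001-23540000, had a median of 34.8 RPM in HWT and 74.7 RPM in H3K9R, a median log2 ratio of 0.99, with 15 of 19 windows called higher. The next, 3L:23760001-24000000, rose from 29.1 to 71.0 RPM (log2 ratio 1.24), with 22 of 24 windows called. The stretch 3L:24060001-25090000, 1030 kb long, rose from 19.0 to 63.9 RPM (1.12), with 85 of 103 windows called. The highest ratio of the 8, 1.70, was that of 3L:25150001-25950000, where 19.9 RPM became 66.8 RPM and 76 of 80 windows were called. The stretch 3L:26040001-27070000 had the lowest medians in every genotype, 14.3 RPM in HWT, 13.2 RPM in H4K16R and 27.0 RPM in H3K9R over all its windows, gaps included, with a log2 ratio of 0.94. The last long one, 3L:27420001-27860000, rose from 29.5 to 47.7 RPM (0.84), with 34 of 44 windows called. The H4K16R/HWT medians of these 6 stretches lay between -0.13 and 0.02. Of the pair of 30 kb stretches, 3L:27210001-27240000 stood at 71.6 RPM in HWT and 73.5 RPM in H3K9R with 0 of 3 windows called, and 3L:28080001-28110000 rose from 44.8 to 77.4 RPM with 3 of 3 called.

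Pooled over the stretches, HWT and H4K16R fell from the edges to the interior far more than H3K9R did. Not every stretch followed this. The 3 windows inside 3L:27025111-27067688 lie near an edge, with medians of 2.39 RPM in HWT and 3.46 RPM in H4K16R. That interval is repeated at 3L:26576565-26619142 with 93.3% of bases the same. At most 1.84% of the 100-base sequences in its windows occur once, so few of its reads can be placed. In the outermost 50 kb (66 windows), the median RPM was 47.0 and 46.8 in the HWT libraries, 45.4 and 46.0 in H4K16R, and 72.1 and 70.7 in H3K9R. At 50 to 150 kb inside (98 windows) it was 32.1 and 31.2 in HWT, 28.9 and 30.2 in H4K16R, and 70.8 and 68.8 in H3K9R. Over 150 kb inside (207 windows) it was 13.1 and 12.9 in HWT, 12.6 and 12.9 in H4K16R, and 52.0 and 52.2 in H3K9R. The stretches of 190, 240 and 30 kb are too short to have windows in this last zone. Their HWT medians were 34.8 RPM, 29.1 RPM and, for the pair of 30 kb, 71.6 and 44.8 RPM. The pooled fall thus also holds differences between stretches, and their part was not tested. The H3K9R libraries lay above the other 4 in each zone, and H3K9R stayed near its edge level up to 150 kb inside. The median log2 H3K9R/HWT ratio was 0.59 at the edges, 1.02 in the next zone and 1.48 in the interior. Limma called 43 of 66 (65.2%), 87 of 98 (88.8%) and 181 of 207 windows (87.4%) higher. The shares were 50.8% over all listed windows and 77.5% over the other pericentric ones. The edges are those of the authors' HWT calls, so the HWT gradient is in part built into the list. H4K16R was not used for those calls. It lay close to HWT in most windows, so its gradient is not independent of the list either.

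**Figure D3:**
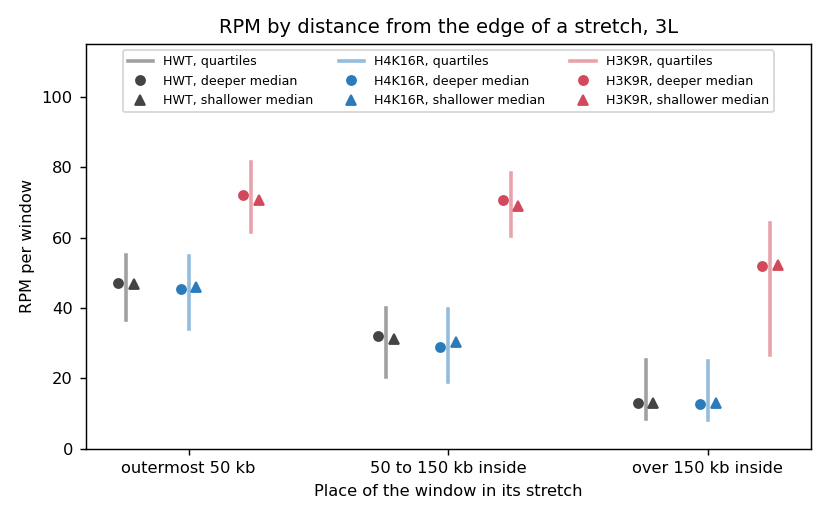
RPM per window of the 3L windows by distance of the window from the nearer edge of its stretch; bars span the quartiles of the averaged RPM over windows and symbols are the medians of single libraries. HWT and H4K16R medians fall from 45.4 to 47.0 RPM at the edges to 12.6 to 13.1 RPM in the interior, while H3K9R medians go from 72.1 and 70.7 RPM to 52.0 and 52.2 RPM.

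Windows that stood lower in H4K16R had higher H3K9R/HWT ratios. The windows were sorted by their RPM in H4K16R, which is not used in the H3K9R/HWT ratio. H4K16R lay close to HWT in most windows, with quartiles of the log2 H4K16R/HWT ratio of -0.12 and 0.07. Sorting by it is thus near to sorting by the HWT denominator, and the groups are not independent of the ratio. In the lowest of 3 equal groups (124 windows, 1.26 to 13.5 RPM in H4K16R) the median was 8.54 RPM in HWT and 31.6 RPM in H3K9R, a median log2 ratio of 1.96. In the middle group (123 windows) it was 23.7 and 63.5 RPM, a ratio of 1.31. In the highest group (124 windows, from 31.7 RPM) it was 47.0 and 72.4 RPM, a ratio of 0.59. Over the 371 windows the log2 ratio correlated with H4K16R RPM at a Spearman rho of -0.66, a description of neighbouring windows that are not independent. The ratio of a window also followed that of the next one in its stretch, with r = 0.78 over 361 pairs.

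**Figure D4:**
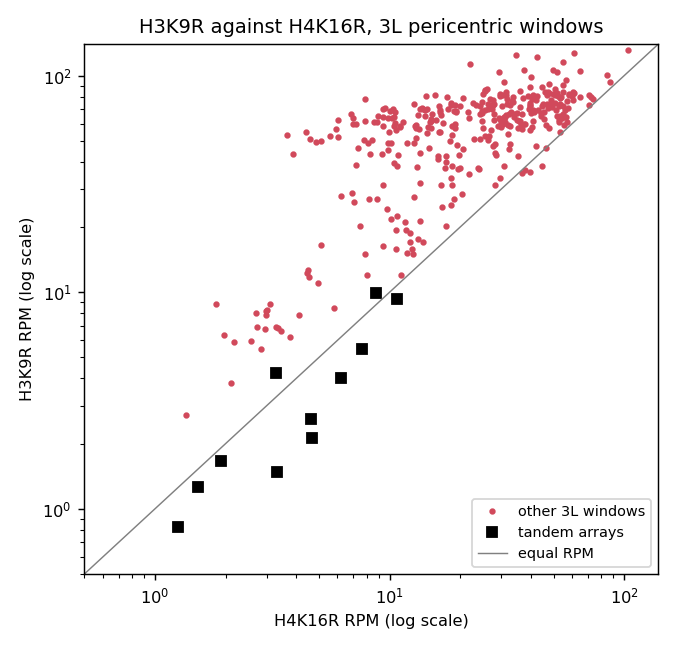
Averaged RPM of H3K9R against H4K16R for the 371 windows of 3L with a read, both on log scales; squares are the 11 windows in tandem arrays and the line marks equal RPM. The H3K9R median goes from 31.6 RPM in the lowest of 3 groups by H4K16R level to 63.5 and 72.4 RPM in the others, and 9 of the 11 array windows lie below the line.

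Along the chromosome the lowest copy number in all genotypes lay between 26.5 and 27 Mb. By bins of 0.5 Mb, the H3K9R median was 74.7 RPM at 23 to 23.5 Mb, 67.8 RPM at 24 to 24.5 Mb, 68.8 RPM at 25.5 to 26 Mb and 63.3 RPM at 26 to 26.5 Mb. At 26.5 to 27 Mb, which holds 42 windows with a read, it was 11.6 RPM, against 3.78 RPM in HWT and 4.72 RPM in H4K16R. These windows still rose, with a median log2 H3K9R/HWT ratio of 0.99 and 30 of 42 called higher, but their H3K9R level stayed below the HWT median of 23.7 RPM for all 371 windows. Assembly gaps and tandem arrays lie in the same bin, and their part in the low level was not tested. In 24.5 to 25 Mb, the bin with the arrays of the first site, the H3K9R median was 37.7 RPM.

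The highest H3K9R/HWT ratios on 3L, where HWT held 1 RPM or more, fell in lovit (FBgn0267429), which encodes a vesicular transporter needed for histamine signalling by photoreceptors. The gene spans 434 kb on the minus strand at 3L:25236940-25670980, most of it introns, and 45 listed windows overlap it. Its windows had a median of 11.9 and 12.04 RPM in the HWT libraries, 11.4 and 11.2 RPM in H4K16R, and 61.4 and 61.3 RPM in H3K9R. All 45 were called higher in H3K9R than in HWT, with a median log2 ratio of 2.28 (4.85-fold) and a range of 0.97 to 3.93. The 5 windows with the highest ratio, where HWT held 1 RPM or more, were all in this gene, 4 of them adjoining at 3L:25480001-25520000 and 1 at 3L:25590001-25600000. The first of these, 3L:25510001-25520000, from which the lovit sequence above was taken, held 3.22 and 3.74 RPM in the HWT libraries, 3.71 and 3.59 RPM in H4K16R, and 53.5 and 52.6 RPM in H3K9R. H3K9R was 15.3-fold higher than HWT on the averages (log2 ratio 3.93), and the limma estimate on log2(RPM + 1) was 3.60 with a standard error of 0.07 and an adjusted p of 3.49e-08. The other 4 were 12.2- to 15.1-fold higher, with limma adjusted p between 3.49e-08 and 1.88e-07. Every 100-base sequence of the window at 25510001 occurs once in the assembly.

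**Figure D5:**
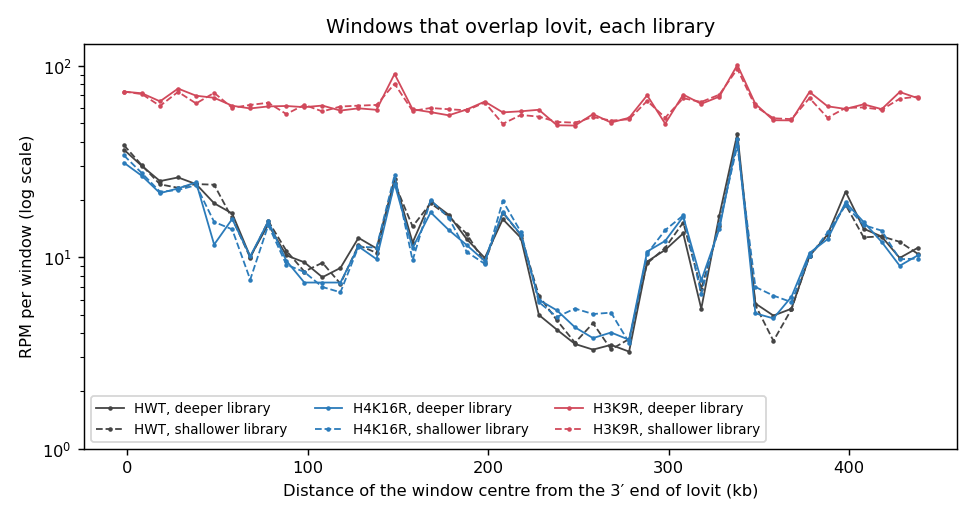
RPM per window (log scale) of each library over the 45 windows that overlap lovit, by distance of the window centre from the 3′ end of the gene in kb; solid lines are deeper and dashed lines shallower libraries. HWT and H4K16R fall together. They lie between 3.22 and 3.74 RPM at the window with the highest H3K9R/HWT ratio, where both H3K9R libraries stay above 52 RPM.

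In all, 31 annotated genes overlap the windows, of which 16 are protein-coding, 8 pseudogenes and 7 non-coding RNA genes. The median log2 H3K9R/HWT ratio was above 0 over 15 of the 16 protein-coding genes and at least 1 over 6. Snap25 (FBgn0011288), a SNARE protein of synaptic vesicle fusion, spans 225 kb, and its 23 windows had medians of 27.2 and 26.7 RPM in HWT and 69.5 and 70.7 RPM in H3K9R. All 23 were called higher, with a median log2 ratio of 1.43. The 16 windows of CG40470 (FBgn0058470), 147 kb long, went from 19.3 and 19.5 RPM to 70.5 and 67.2 RPM (ratio 1.64), and all were called. FASN3 (FBgn0287184), a fatty acid synthase, has 2 windows at 27.1 RPM in both HWT libraries and at 70.9 and 67.6 RPM in H3K9R (ratio 1.35), both called. The 16 windows of l(3)80Fg (FBgn0287183), 216 kb long and partly outside the list, had a ratio of 0.70, with 14 called. The nvd gene (FBgn0287185), which encodes the Neverland oxygenase that acts on cholesterol at the start of ecdysone synthesis, was picked after its values were seen. Its 9 windows rose from 8.76 and 8.34 RPM to 61.7 and 57.6 RPM, a median log2 ratio of 2.81, the highest of the 16. H4K16R/HWT medians of these 6 genes, lovit included, lay between -0.13 and 0.18, and no window of theirs was called in H4K16R by limma.

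Genes at the other end of the order had copy number close to that of HWT in H3K9R. Dbp80 (FBgn0024804), a DEAD-box RNA helicase, is 143 kb long but only 1 of its windows is listed, at 68.8 and 66.9 RPM in HWT and 82.2 and 77.8 RPM in H3K9R, a log2 ratio of 0.24 that was not called (limma adjusted p = 0.012). eIF4B (FBgn0020660), a translation initiation factor that assists the unwinding of mRNA by eIF4A, lies on the minus strand at 3L:27842669-27858271. Its 2 windows, 3L:27840001-27850000 and 3L:27850001-27860000, had medians of 40.1 and 36.9 RPM in HWT, 42.9 and 39.6 RPM in H4K16R, and 40.9 and 33.9 RPM in H3K9R. The libraries of the 3 genotypes overlapped, the log2 H3K9R/HWT ratio was -0.04 in both windows, and limma gave adjusted p of 0.71 and 0.68. They were among the 5 lowest of all 3L windows. Of the 13 genes looked for by name as residents or neighbours of 3L heterochromatin, 5 (lovit, Snap25, FASN3, Dbp80 and eIF4B) are overlapped by a listed window, AGO3, vtd, Set1, RpL15, alpha-Cat and nrm are not, and spok and Pzl were not matched on 3L in the annotation used here.

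The eIF4B windows belong to a duplication, which limits what their reads can say. The sequence 3L:27514926-27549160, 34.2 kb long, is repeated at 3L:27824015-27858249 with 100% of bases the same. The windows wholly inside the copies, 2 in each, had no 100-base sequence that occurs once, and their medians were 40.01 and 40.7 RPM in HWT, 40.8 and 42.2 RPM in H4K16R and 41.7 and 41.4 RPM in H3K9R. The window 3L:27530001-27540000 in the first copy was also among the 5 lowest ratios, at 36.3 and 35.9 RPM in HWT and 34.2 and 37.5 RPM in H3K9R (limma adjusted p = 0.89). A read of either copy cannot be told from one of the other, and how such reads were kept after the mapping quality filter was not tested. A second repeat, 35.8 kb long at 3L:27478403-27514171 and 3L:27550575-27586343 with 99.99% of bases the same, lies right beside it and did differ between genotypes, with medians of 20.6 and 20.4 RPM in HWT against 35.0 and 34.1 RPM in H3K9R.

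Sequence that can be placed and sequence that cannot differed in the size of the ratio. In the 87 windows in which at least 80% of 100-base sequences occur once, the median was 22.2 RPM in HWT, 19.2 RPM in H4K16R and 68.7 RPM in H3K9R. The median log2 H3K9R/HWT ratio there was 1.56, with 82 windows called higher and both H3K9R libraries above both HWT libraries in all 87. In windows with 50 to 80% the ratio was 1.07, with 20 to 50% it was 0.82, and with under 20% but above 0 it was 0.89. In the 17 windows with none, it was 0.61 and 11 were called (64.7%). Of all listed windows 50.8% were called higher, and of the other pericentric ones 77.5%. On the other chromosomes, the 235 windows with at least 80% placeable sequence gave a ratio of 1.6. By soft-masked repeats, the 124 windows with the fewest masked bases had a ratio of 1.35 and the 124 with the most 0.95. The 34 windows at least 50% covered by annotated transposons had a ratio of 0.94, with a HWT median of 36.5 RPM. The transposon annotation is densest on the arm side. Its mean share of a window was 75.7% at 23 to 23.5 Mb, 31.0% at 23.5 to 24 Mb and 0.75% at 25 to 25.5 Mb. Mean soft-masked shares in these bins were 34.3%, 40.3% and 45.2%. The ratio of the 34 windows thus cannot be told apart from their place on the chromosome.

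Windows inside introns had higher H3K9R/HWT ratios than windows with exons or outside genes. In the 81 windows that lie in introns of protein-coding genes and touch no protein-coding exon, the median log2 ratio was 1.87 and 80 were called. In the 49 windows with a protein-coding exon it was 1.05, with 39 called (79.6%). In the 232 with no gene it was 0.92, with 186 called (80.2%). Both shares lay near the 77.5% of other pericentric windows, where 50.8% of all listed windows were called. The intron windows are of few genes: 40 of them are from lovit, with a ratio of 2.251, and the other 41 had a ratio of 1.23. HWT levels moved with these groups, at 12.5 RPM in the lovit intron windows, 26.6 RPM in the other intron windows, 26.4 RPM in the exon windows and 24.4 RPM outside genes. The part of the HWT level in the differences between these groups was not tested.

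Windows in tandem arrays were among those that were not called higher in H3K9R. In 11 windows within 3L:24600001-24680000 and 3L:26880001-27010000, at least 30% of 12-base words returned 100 to 1000 bases further on, most often at distances of 348 to 354 bases at the first site (699 bases in 1 of its 6 windows) and of 362 to 730 bases at the second. These are the arrays from which the pair of aligned sequences above was taken. At the second site, the windows starting at 26880001, 26930001, 26950001 and 27000001 are mostly assembly gap. They hold 7679, 6121, 7475 and 6385 N, and RPM per window was not corrected for N. Over the 11 windows the median was 2.54 RPM in HWT, 4.62 RPM in H4K16R and 2.60 RPM in H3K9R. The median log2 ratio was 0.08 for H3K9R/HWT and 0.69 for H4K16R/HWT, against 1.16 and -0.02 in the 360 windows outside the arrays. Limma called 0 of the 11 higher in H3K9R than in HWT (3 higher and 1 lower at an unadjusted p under 0.05), and all 311 calls lay outside. The grouping by arrays was made after the values had been seen.

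The order of HWT and H3K9R differed between single array windows. The lowest H3K9R/HWT ratio on 3L was at 3L:24620001-24630000, with 2.13 and 1.93 RPM in HWT, 1.21 and 1.77 RPM in H3K9R and 3.75 and 2.89 RPM in H4K16R. H3K9R was 0.733-fold HWT (limma adjusted p = 0.066), and the next lowest, 3L:24630001-24640000, was 0.823-fold (limma adjusted p = 0.024). At 3L:24640001-24650000 the libraries held 1.98 and 2.36 RPM in HWT, 4.61 and 4.62 RPM in H4K16R, and 2.69 and 2.52 RPM in H3K9R. H4K16R was 2.13-fold HWT there, with a limma estimate of 0.83 on log2(RPM + 1) and an adjusted p of 0.00069, which ranged from 0.0015 to 0.0075 over the alternatives that lost the call. This window, 3L:24630001-24640000 and 3L:27000001-27010000 are the 3 called higher in H4K16R than in HWT. In 3L:27000001-27010000, 6385 of the bases are N. The 4 windows called lower in H3K9R than in H4K16R are 3L:24620001-24630000, 3L:24630001-24640000, 3L:24640001-24650000 and 3L:26940001-26950000, array windows as well. At 3L:24640001-24650000 the libraries held 47 to 123 reads, fewer than in a typical 3L window.

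The extremes of the H4K16R/HWT ratio were otherwise in poor or single windows. The 2 highest, 3L:26710001-26720000 and 3L:26660001-26670000, lie in the low bin near the centromere, with 1.40 and 0.748 RPM, and 1.32 and 1.46 RPM, in the HWT libraries. They held 2.36 and 3.07 RPM, and 3.86 and 2.68 RPM, in the H4K16R libraries (2.53- and 2.36-fold, limma adjusted p = 0.015 and 0.0056). The lowest, 3L:25280001-25290000 in an intron of lovit, had 19.1 and 23.9 RPM in HWT and 11.7 and 15.3 RPM in H4K16R, a 0.626-fold value with a limma adjusted p of 0.023. Next were 3L:25700001-25710000 at 0.749-fold and 3L:26090001-26100000 at 0.783-fold, with limma adjusted p of 0.012 and 0.011. None of these 5 passed the cutoff for H4K16R, and all 5 were called higher in H3K9R than in HWT.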

How the data were processed

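Reads were trimmed with Trimmomatic 0.36, aligned to dm6 with Bowtie2 2.3.2, filtered on mapping quality with SAMtools 1.6 and counted in 10 kb windows with bedtools by the authors. The deposited lists hold the authors' mean RPM of 2 replicates per genotype, for windows at domains called under-replicated in HWT with CNVnator and split into pericentric and arm by H3K9me2. Columns of single samples not used numbered 0.

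Whole reads of 2 libraries per genotype were derived from the averages (tolerance 0.01 reads), tested on simulated data. Ratios used averages with no pseudocount. limma 3.58.1 (R 4.3.3) was fitted to log2(RPM + 1) of the 6 libraries over all listed windows with a read, without a replicate block. Windows are not replicates, so the methods' test over windows was not used, and neighbouring windows share domains. Limma p-values rest on the spread between the 2 libraries of a genotype, pooled over the 3 genotypes and drawn toward the spread of all tested windows. Named windows were the 5 highest and 5 lowest by H3K9R/HWT and the 3 highest and 3 lowest by H4K16R/HWT with at least 1 RPM in HWT, with their genes, the 5 longest genes, a list of 13 genes and stretches of at least 50 kb. Members, lists and rules were chosen with earlier results of these data known. Sequences and genes came from the RefSeq dm6 assembly and the Ensembl annotation, with 1-based positions. Alternatives were another pseudocount, a minimum of 5 RPM, sums, scaling to arm windows, windows with at least 80% placeable sequence, stretches, cutoffs and left-out libraries. The arm windows used for scaling were the 81 listed under-replicated ones with the highest HWT RPM.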

Additional observations from a re-analysis of the deposited data

How the results depend on the processing

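The medians of H3K9R/HWT and H3K9R/H4K16R stayed above 0 under every alternative run. Their totals of windows called, higher and lower together, stayed within 1.5 times. The few windows called lower in H3K9R than in H4K16R did not. The median log2 H3K9R/HWT ratio of 1.12 became 1.06 with a pseudocount of 1 RPM, 1.07 with a minimum of 5 RPM, 1.07 from summed RPM, 1.26 after scaling to arm windows, 1.56 in windows with at least 80% placeable sequence, 0.97 over stretches and 1.16 outside tandem arrays (chosen after seeing the data), and 1.08 to 1.14 with 1 library left out. The H3K9R/H4K16R median of 1.10 became 1.05 with the pseudocount, 1.24 after scaling, 1.46 in placeable windows, 1.02 over stretches, 1.14 outside arrays, and 1.07 to 1.13 with 1 library left out. The H4K16R/HWT median of -0.02 became -0.045 from summed RPM, -0.059 in placeable windows, -0.037 over stretches, and -0.03 to -0.01 with 1 library left out. Limma calls for H3K9R against HWT ran from 267 to 347. The 4 windows with H4K16R/HWT of at least 2 became 13 at a ratio of 1.5, 0 with the pseudocount and 1 with the minimum of 5 RPM, and 3 to 5 with 1 library left out. The 3 windows called in H4K16R became 39 at a cutoff of 0.05, and 0 with a pseudocount of 0.1 RPM, with all listed windows, with 2 genotypes alone, outside arrays, and with 1 library left out (0 to 0). The cause was not tested. Among the 16 window results named, 121 alternatives kept the side of the cutoff and 7 lost the call, all 7 at 3L:24640001-24650000. The H3K9R/HWT limma estimates of the uncalled windows starting at 27850001, 27840001 and 27530001 changed sign under some, going from -0.05, -0.04 and -0.01 to 0.09, 0.095 and 0.13 after scaling. No paired analysis was possible because the deposited averages carry no replicate numbers. Depth limits the windows in arrays and near 26.5 to 27 Mb, where RPM are lowest.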
